A study of Mus musculus with 6 samples.

Results

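CpG islands that lie far from coding genes were examined in the cerebral cortex of Uhrf1 conditional knockout (cKO) and control mouse embryos at embryonic day 16. Islands were computed from the GRCm38 sequence as merged 200-bp windows with a GC content of at least 50% and an observed to expected CpG ratio of at least 0.6. Those on the autosomes, outside every protein-coding gene body and over 5000 bp from every protein-coding gene, were kept when at least 3 of their cytosines were read at least 6 times in each of the 6 libraries. This gave 6099 islands with 36402 measured cytosines, out of 29209 measured autosomal islands. The sequence itself holds 67003 such islands, so most were not measured here. The rule used sequence, annotation and coverage, and no methylation value, but it was set with earlier results of these data known.

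The cKO embryos (Uhrf1 -/- in the labels, 3 libraries) and the control embryos (Uhrf1 +/-, 3 libraries) were C57BL/6, and both carried the Emx1 Cre allele, so that one Uhrf1 allele was also lost in the Emx1 lineage of controls. Emx1 Cre acts in progenitors of the dorsal telencephalon, and DNA came from the whole cortex, so interneurons, vessels and microglia, which do not derive from that lineage, were sampled too. 5-methylcytosine (5mC) was read by Ox-RRBS, a bisulfite assay of a reduced part of the genome with an oxidation step, in which MspI cuts at CCGG, 5-hydroxymethylcytosine is oxidised so that it reads as unmethylated, and bisulfite then turns unmethylated cytosine into T. A level is the percent of reads over an island that kept C, and neither the Uhrf1 deletion nor the cell make-up of a sample can be read from it. The labels do not name the litter of a library, so p-values measure only the spread between these libraries.

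Uhrf1 binds CpGs that carry methylation on the parental strand only, as they do just after replication, and brings the maintenance methyltransferase Dnmt1 to them, which copies the mark to the new strand. CpG islands at gene starts mostly stay free of methylation. Islands away from coding genes are more mixed: some mark the starts of noncoding transcripts or distal control elements of developmental genes and are unmethylated, whereas others lie in CpG-rich repeats or in single-copy sequence that is methylated in somatic cells.

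The sequences of 5 islands show how diverse these islands are. They were chosen by rule, as the largest fall, the 2 with the highest level in cKO among highly methylated islands, the largest rise, and the unmethylated island with most reads. Each is given 5′ to 3′ on the plus strand of GRCm38, whole or as its central 300 bases, with the CpGs in capitals.
Largest fall, on chromosome 9, chr9:9325836-9326101: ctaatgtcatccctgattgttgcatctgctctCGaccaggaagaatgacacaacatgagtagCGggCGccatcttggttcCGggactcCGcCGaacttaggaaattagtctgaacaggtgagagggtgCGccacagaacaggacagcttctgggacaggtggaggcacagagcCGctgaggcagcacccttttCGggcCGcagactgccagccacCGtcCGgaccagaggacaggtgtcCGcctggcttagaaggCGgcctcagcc
Most methylated in cKO, on chromosome 1, chr1:122772346-122772645: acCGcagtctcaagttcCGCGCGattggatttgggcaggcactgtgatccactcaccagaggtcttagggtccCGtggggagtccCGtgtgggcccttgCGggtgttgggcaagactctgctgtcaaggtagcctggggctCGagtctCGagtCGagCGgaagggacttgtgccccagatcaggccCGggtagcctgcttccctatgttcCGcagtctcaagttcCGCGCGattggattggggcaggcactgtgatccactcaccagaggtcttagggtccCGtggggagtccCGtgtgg
Second most methylated in cKO, on chromosome 13, chr13:113507263-113507562: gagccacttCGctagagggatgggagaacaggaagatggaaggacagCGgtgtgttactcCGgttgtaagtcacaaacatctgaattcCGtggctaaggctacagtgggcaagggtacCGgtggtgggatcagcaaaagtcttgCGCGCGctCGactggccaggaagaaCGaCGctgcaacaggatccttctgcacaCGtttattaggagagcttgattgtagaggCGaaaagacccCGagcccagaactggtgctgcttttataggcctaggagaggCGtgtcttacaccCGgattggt
Largest rise, 12805 bp from Lbx1, chr19:45248656-45248955: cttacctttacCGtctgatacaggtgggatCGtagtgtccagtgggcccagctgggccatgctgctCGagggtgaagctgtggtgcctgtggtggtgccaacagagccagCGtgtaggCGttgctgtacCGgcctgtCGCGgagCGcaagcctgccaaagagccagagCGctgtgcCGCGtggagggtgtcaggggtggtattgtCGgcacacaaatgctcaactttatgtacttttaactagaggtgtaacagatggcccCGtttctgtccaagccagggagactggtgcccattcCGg
Unmethylated throughout, at Zswim6, chr13:107890000-107890299: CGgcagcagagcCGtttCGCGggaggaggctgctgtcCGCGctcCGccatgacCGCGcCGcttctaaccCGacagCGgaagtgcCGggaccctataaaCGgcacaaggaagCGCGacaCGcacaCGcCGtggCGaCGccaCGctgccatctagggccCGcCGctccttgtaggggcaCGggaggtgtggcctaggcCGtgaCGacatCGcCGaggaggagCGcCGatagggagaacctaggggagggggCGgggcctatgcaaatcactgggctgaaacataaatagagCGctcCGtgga
The 266 bases of the largest fall hold 14 CpGs, the 300 bases from chromosome 1 hold 18 and those from chromosome 13 at Zswim6 hold 34. The chromosome 1 stretch is a tandem repeat, since 97.8% of 92 bases matched when it was shifted by 208 bases, and its 31-base words occur a median of 1950 times in the genome. In the other 4 islands shown the median word occurs once.

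The libraries held 18238737 to 31019082 reads over all listed cytosines, with a median coverage of 13 to 17, and between 1281683 and 2246544 reads over these islands, with a median of 96 to 148 reads per island. The library labelled control replicate 1 stood apart from the other controls. Across the 6099 islands its level differed from control replicates 2 and 3 by a mean of 29.7 and 29.2 percentage points, while those differed from each other by 5.54 points and the cKO libraries from each other by 8.26 to 9.18 points. It differed from the cKO libraries by 8.03 to 9.87 points. Whether its label or genotype is right cannot be decided from these files, so each mean over all 3 controls rests on the label. It keeps its label here, and the main results are given with all 6 libraries and without it. Leaving it out selects a control by the outcome that was measured, so tests without it describe the contrast with control replicates 2 and 3 and are no independent evidence of a loss.

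In cKO cortices these islands carried less methylation than in control replicates 2 and 3. Averaged over islands, the level was 35.3%, 34.6% and 29.7% in cKO replicates 1, 2 and 3, against 30.3%, 59.5% and 58.9% in control replicates 1, 2 and 3. The cKO libraries lay close together and overlapped only with control replicate 1. The mean was 33.2% ± 3.01 in cKO and 49.6% ± 16.7 in control (SD, n = 3 each), a difference of -16.4 points with a two-sided exact permutation p = 0.3. Against control replicates 2 and 3 alone (59.2% ± 0.398, SD, n = 2) the difference was -26.01 points with an exact p = 0.1, the smallest that 3 against 2 or 3 against 3 libraries allow. The cKO level was 66.9% of that of all controls and 56.1% of that of control replicates 2 and 3. With islands built from longer, denser windows of 500 bp the differences were -7.03 points with all libraries and -11.2 points without control replicate 1. Since whole cortex was sequenced, a loss in fewer cells and a smaller loss in more cells cannot be told apart.

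The average hides a change in shape. In control replicates 2 and 3 the islands fell into a methylated and an unmethylated set, with 3331 of 6099 (54.6%) at 75% or more, 1424 (23.3%) under 10% and 1071 (17.6%) between 25% and 75%. In cKO the middle was filled, with 285 islands (4.67%) at 75% or more, 1584 (25.97%) under 10% and 3491 (57.2%) between 25% and 75%. The library labelled control replicate 1 had the shape of the cKO libraries, with 1825 islands (29.9%) between 25% and 50%. The median island was at 33.1% ± 4.53 in cKO (SD, n = 3) and at 79.1% ± 0.848 in control replicates 2 and 3 (SD, n = 2).

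**Figure D1:**
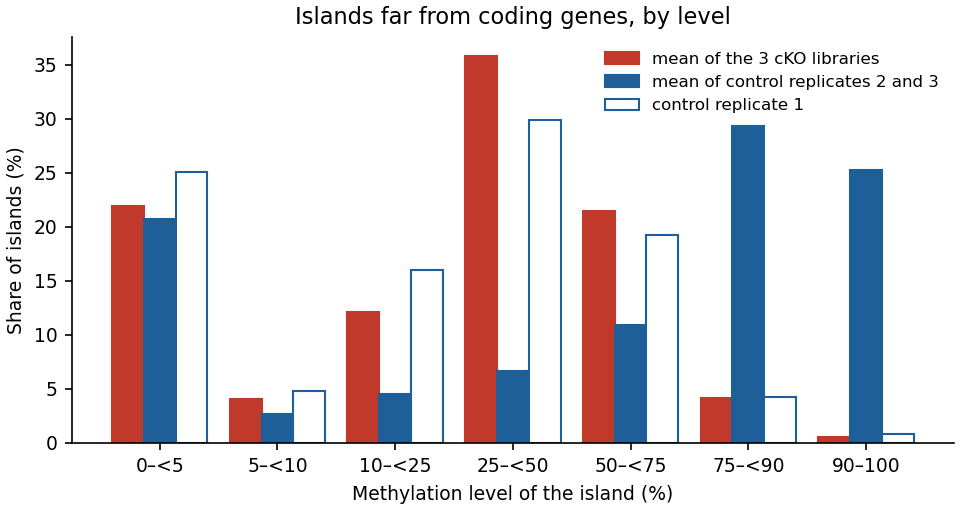
Share of the 6099 islands (vertical axis, percent) in each band of methylation level (horizontal axis, percent), for the mean of the 3 cKO libraries (red), the mean of control replicates 2 and 3 (blue) and control replicate 1 (white). The cKO bars peak at 25% to 50% (35.8% of islands), where control replicates 2 and 3 have 6.66%, and the lowest band holds 21.9% in cKO and 20.7% in control replicates 2 and 3.

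Islands far from coding genes carried more methylation than any other class of island. Islands inside coding gene bodies (11255) were at 23.9% ± 2.97 in cKO and 41.6% ± 17.9 in control, and islands at coding promoters (10720) at 2.59% ± 0.447 in cKO and 2.78% ± 0.861 in control (SD, n = 3 each). In control replicates 2 and 3 alone the gene-body islands averaged 51.9% and the promoter islands 3.28%. Within each library, the far islands exceeded the gene-body islands by 9.25, 9.45 and 9.27 points in cKO, against 9.37, 7.33 and 7.29 points in control. The gap was thus wider in every cKO library than in control replicates 2 and 3, but not than in control replicate 1, and its change was 1.32 points (exact p = 0.3) with all libraries and 2.01 points (exact p = 0.1) without control replicate 1. This change took the opposite sign, -0.73 points, when each cytosine weighed the same, and -1.31 points when islands were built from longer, denser windows, so it depends on how islands are defined and weighted. The excess over promoter islands averaged 30.6 ± 3.17 points in cKO and 46.8 ± 15.8 points in control (SD, n = 3 each; exact p = 0.3).

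**Figure D2:**
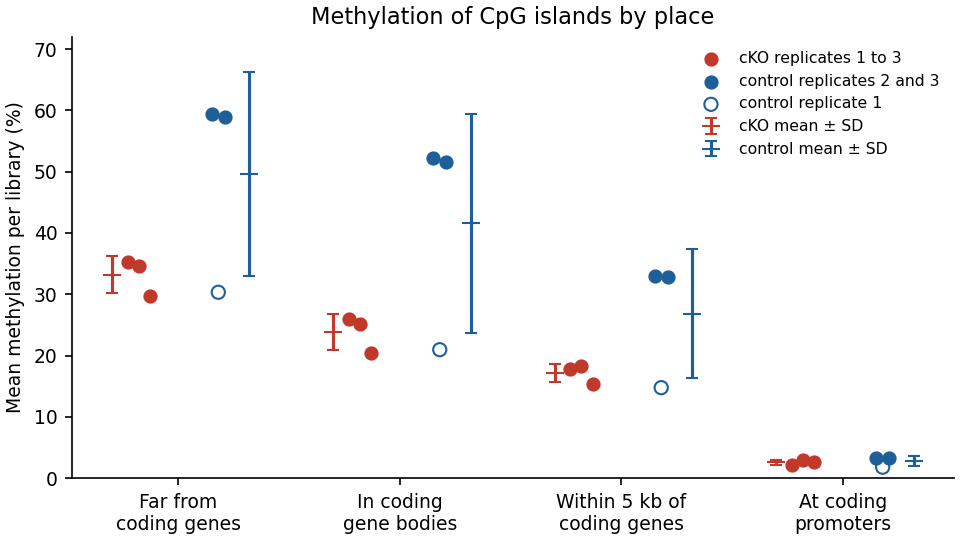
Mean methylation per library (vertical axis, percent) of 4 classes of CpG island, with the cKO libraries in red at the left of each class and the controls in blue at the right. Open circles are control replicate 1, and bars give the mean and SD of each group of 3. The far islands are the highest class in every library, and control replicate 1 lies at or below the lowest cKO library in the near and promoter classes and among the cKO libraries in the others.

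Each island was then tested on its reads with a quasi-binomial F test, and called when the Benjamini-Hochberg q over all 29209 islands was under 0.01 and the group means differed by at least 25 points. With all 6 libraries no far island was called lower or higher (background 0% of islands in either direction), although 718 of them had an unadjusted p under 0.05, all with lower levels in cKO. limma on transformed levels also called 0, with 901 unadjusted p under 0.05, and so did the test with each island's own dispersion, with 508. The plain binomial test, which ignores the spread between libraries, called 1912 lower and 0 higher. Without control replicate 1, 2798 of the far islands (45.9%) were called lower, against a background of 31.1% of all islands, and 0 were called higher (background 0%, with 17 far islands higher at an unadjusted p under 0.05). limma called 2484 lower in the same libraries, whereas the test with each island's own dispersion called 0, with 3484 unadjusted p under 0.05. Only islands with a control level of at least 25% can fall by 25 points. Among these, 2798 of 4402 far islands (63.6%) were called, against a background of 73.5%, 5773 of 7168 gene-body islands (80.5%) and 202 of 343 promoter islands (58.9%).

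Without a threshold, all 3 cKO libraries lay below all 3 controls in 803 far islands (13.2%, background 7.58%) and above them in 161 (2.64%, background 7.88%). Of the 2302 islands above in all libraries among the 29209 measured autosomal islands, 1586 were promoter islands. As a class, promoter islands averaged only 2.59% in cKO and 2.78% in control.

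How much was left varied with the level at which an island started. To keep selection apart from the readout, islands were binned by control replicate 2 and read in the other libraries. In the 1414 islands under 10%, the level was 2.48% ± 0.595 in cKO (SD, n = 3) and 2.22% in control replicate 3. The 267 islands of the bin of 10% to 25% were at 10.7% ± 1.22 in cKO and 17.04% in control replicate 3, and kept 62.7%. The bins of 25% to 50% (410 islands) and 50% to 75% (662 islands) stood at 18.9% ± 2.83 and 32.1% ± 3.82 in cKO, against 36.8% and 65.6% in control replicate 3. These islands thus kept 51.2% and 48.9% of the control level. The 3346 islands at 75% or more kept more than these middle bins, but less than the bin of 10% to 25%, with 49.9% ± 4.38 in cKO against 87.6% in control replicate 3, or 57.0%. With control replicate 3 setting the bins and control replicate 2 read in its place, the bins from 10% upwards kept 60.8%, 49.2%, 48.6% and 56.7%. The lowest bin was then at 2.60% in cKO and 2.68% in control replicate 2, so the sign of its small difference depends on which control sets the bins.

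The high bin was not uniform, and the share of repeat sequence went along with what was left. Repeats are soft-masked in the GRCm38 sequence, and 2118 of the far islands (34.7%) were masked over at least 50% of their length, against 5.16% of gene-body islands and 0.252% of promoter islands. These repeat islands were at 55.4%, 55.4% and 48.9% in cKO replicates 1 to 3, against 50.4%, 86.7% and 86.1% in control replicates 1 to 3. The 2604 islands masked over less than 10% were at 22.4%, 21.4% and 17.6% in cKO and at 17.7%, 41.9% and 41.4% in control. The sets also differed in their starting level, since only 1 of the 1424 islands under 10% in control replicates 2 and 3 was a repeat island.

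At a matched start of 75% or more in control replicate 2, the difference remained. The 1890 repeat islands were at 55.3% ± 3.85 in cKO (SD, n = 3) and 89.1% in control replicate 3, and so kept 62.1%. The 848 islands with little masked sequence were at 41.4% ± 5.20 in cKO and 85.4% in control replicate 3, and kept 48.5%. The excess of repeat islands was 11.9, 14.4 and 15.2 points in the cKO libraries, against 15.3, 2.73 and 3.71 points in control replicates 1, 2 and 3. Copy number in the genome showed the same order: the 977 islands of this bin whose 31-base words occur at least 10 times kept 66.4%, and the 1818 whose words occur once kept 51.2%. The 2 traits overlap. Over all starting levels, the 521 repeat islands whose words occur once kept 56.4% of the level of control replicates 2 and 3. The 1079 repeat islands of at least 10 copies kept 65.9%. The 2495 islands with little masked sequence and words that occur once kept 48.4%, from a lower level in these controls (41.3%). Reads were matched with no mismatch allowed, and how reads that match several places were handled is not given in the sources used here, so an island with many copies may hold reads of its copies. Its part in the result was not tested.

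**Figure D3:**
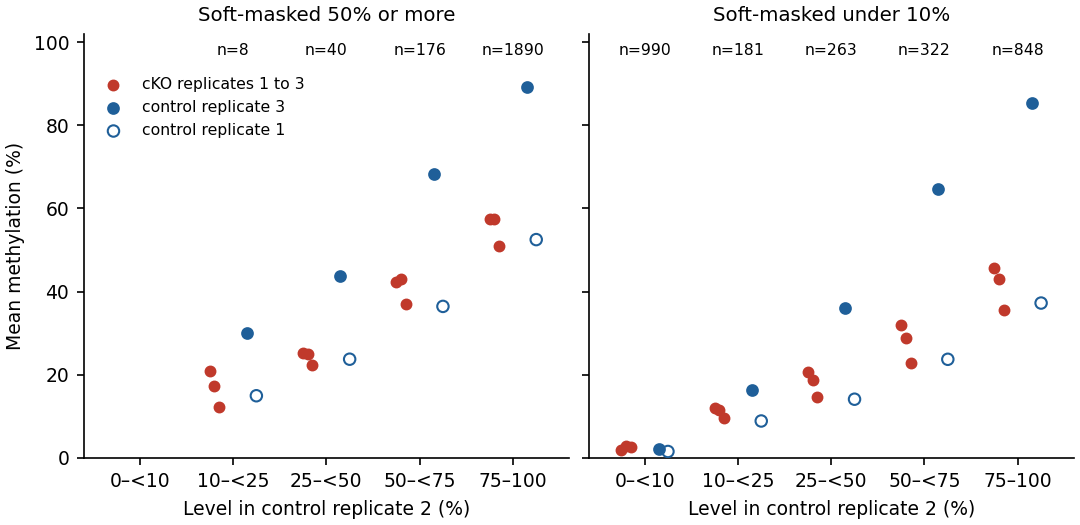
Mean methylation (vertical axis, percent) of far islands against their starting level in control replicate 2 (horizontal axis, bins in percent), for islands soft-masked over 50% or more of their length (left) and under 10% (right); n is the number of islands. Red points are the 3 cKO libraries, filled blue points control replicate 3 and open circles control replicate 1. In the highest bin the cKO points lie at 50.8% to 57.5% on the left and 35.6% to 45.6% on the right.

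Gene-body islands offered a comparison at the same start. Those at 75% or more in control replicate 2 (5370) were at 39.4% ± 5.05 in cKO (SD, n = 3), so the far islands of that bin stood 9.98, 10.4 and 11.3 points higher in the cKO libraries and 11.1, 1.10 and 1.00 points higher in control replicates 1, 2 and 3. Restricted to islands masked over less than 10%, the excess was 4.27, 3.32 and 3.98 points in cKO, against 3.94, -0.34 and -0.96 points in control. The excess in cKO was thus smaller among islands with little repeat sequence, at 3.86 points on average against 10.6 points over all islands of the bin.

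Noncoding annotation divided the islands further. The 1008 islands that overlap a long noncoding RNA (lncRNA) gene were at 22.6% ± 2.21 in cKO and 34.5% ± 12.3 in control, and the 4706 with no annotated gene at 35.1% ± 3.101 in cKO and 52.3% ± 17.4 in control (SD, n = 3 each). In control replicates 2 and 3 alone these classes averaged 41.6% and 62.4%, and 43.2% of the lncRNA islands but 19.6% of those with no gene were under 10%. Islands in pseudogenes (371), most of which are retrotransposed copies of messenger RNAs, were the highest of these classes at 37.5% ± 4.12 in cKO and 56.1% ± 18.9 in control. Of the 862 islands within 1000 bp of the annotated start of a noncoding gene, 358 (41.5%) were under 10% in control replicates 2 and 3, against 1066 of 5237 others (20.4%). The levels that were left in cKO, as a share of control replicates 2 and 3, ranged from 52.5% to 56.3% over the 4 annotation classes. The fourth held 14 islands on small RNA genes. An island in several kinds of gene was counted once, as lncRNA before pseudogene before small RNA.

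Levels also differed between classes of length, CpG density and distance. Islands of at least 500 bp (1731) were at 30.9% ± 1.95 in cKO and 41.1% ± 10.8 in control, and those under 300 bp (2073) at 32.98% ± 3.76 in cKO and 53.5% ± 20.5 in control (SD, n = 3 each). Those from 300 up to 500 bp (2295) lay above both in cKO, at 35.1% ± 3.15, and between them in control, at 52.4% ± 17.7, so the cKO level had no order by length. The long islands kept 65.2% of the level of control replicates 2 and 3 and the short ones 50.5%. The densest islands, with an observed to expected ratio of at least 0.75 (570), were at 24.9% ± 2.14 in cKO and 33.9% ± 9.72 in control. The 1862 islands over 100 kb from any coding gene were at 42.5% ± 3.30 in cKO and 60.7% ± 18.3 in control, and the 1849 within 20 kb at 27.04% ± 2.74 in cKO and 41.9% ± 15.3 in control. In control replicates 2 and 3 alone the long and short islands averaged 47.3% and 65.3%, and the distant and closer ones 71.3% and 50.7%. Among chromosomes, chromosome 11 was lowest, at 24.5% ± 2.34 in cKO and 37.0% ± 13.1 in control, and chromosome 10 had the highest control level, with 40.8% ± 4.32 in cKO and 60.3% ± 20.4 in control. Over the 38 classes and chromosomes compared, each had a lower mean in cKO, with an adjusted exact permutation p of 0.335 to 0.40 with all libraries and of 0.10 without control replicate 1.

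Methylation within and around the islands was read by distance from the edge, for the methylated and the unmethylated set. In islands at 75% or more in control replicates 2 and 3, cytosines over 200 bp inside the edge were at 59.0% ± 3.35 in cKO and 89.1% ± 0.449 in control replicates 2 and 3, those in the outer 50 bp at 46.0% ± 4.78 in cKO and 87.6% ± 0.218 in the controls, and those 51 to 100 bp outside at 39.9% ± 5.38 in cKO and 82.9% ± 0.394 in the controls (SD, n = 3 and 2). The share left was thus 66.2% in the interior, 52.5% at the edge and 48.1% in the flank. Control replicates 2 and 3 also chose these islands, so their level inside is held high by the choice, and that of the flank is not. Different islands contribute at different distances, since 592 islands reach the innermost class and 1249 the outermost 50 bp. Only longer islands can reach the innermost class. Over all far islands, those of at least 500 bp kept 65.2% of the level of control replicates 2 and 3, and those under 300 bp 50.5%. Island length and position within the island were thus not separated here.

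Islands under 10% in control replicates 2 and 3 were also low inside in cKO. The low level inside in these 2 controls is set by the choice of islands, whereas the flank took no part in that choice. Over 200 bp inside the edge the level was 1.49% ± 0.444 in cKO and 1.05% ± 0.0224 in control replicates 2 and 3, and over 500 and up to 1000 bp outside it was 19.4% ± 2.71 in cKO and 44.7% ± 0.0267 in the controls (SD, n = 3 and 2). The difference from control replicates 2 and 3 was thus 0.44 points inside and -25.3 points in the far flank.

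**Figure D4:**
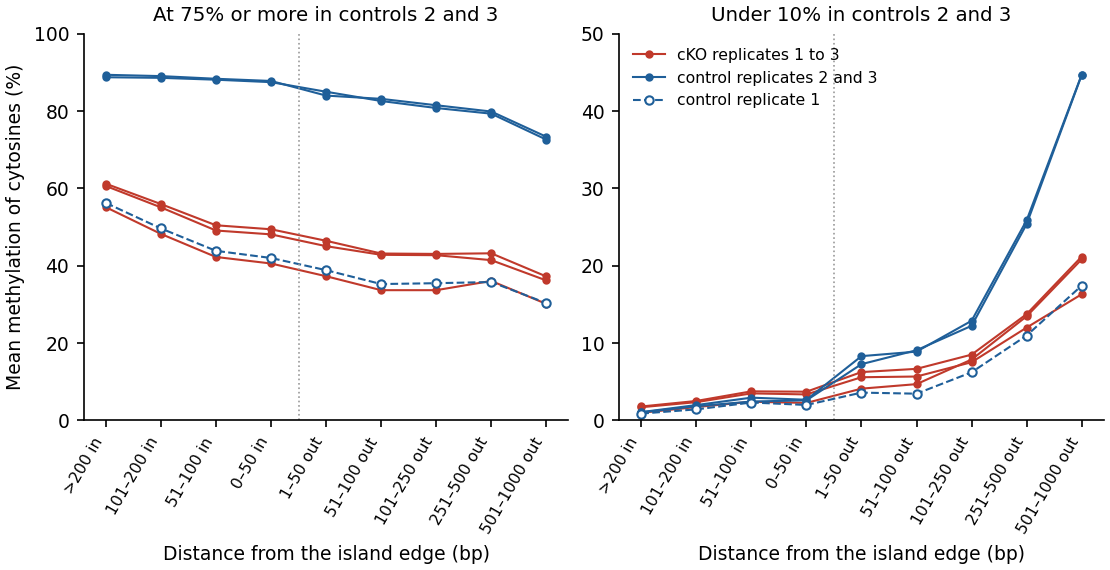
Mean methylation of cytosines (vertical axis, percent) by distance from the island edge in bp (horizontal axis, inside to outside; the dotted line is the edge), for islands at 75% or more (left) and under 10% (right, vertical axis to 50%) in control replicates 2 and 3. Red lines are the 3 cKO libraries, blue lines control replicates 2 and 3 and the dashed line control replicate 1. On the left the cKO lines decline from 55.1% to 61.2% in the interior to 30.1% to 37.2% in the outermost flank. On the right all lines stay under 4% inside. Only longer islands have cytosines over 200 bp inside the edge.

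Single islands are named by rule from the 2663 with at least 5 cytosines and 50 reads in every library, and values of islands picked for their change are descriptions. The largest fall was at chr9:9325836-9326101, the first sequence above, which is 91.4% soft-masked and lies 86735 bp from Arhgap42. Its level was 26.2%, 32% and 25.5% in the cKO libraries, against 33.8%, 98.9% and 96% in control replicates 1 to 3. The cKO libraries were all below the controls, and control replicate 1 was next to them. Its difference was -48.3 points (q = 0.488) with all libraries and -69.5 points (q = 9.71e-06) without control replicate 1. With 65 reads in its shallowest library, the Wilson 95% interval of control replicate 1 was 23.5% to 46.0%, and such intervals cover counting error only.

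The island at chr4:125918460-125918677 lies in the lncRNA gene 2610028E06Rik and was at 31.7%, 15.6% and 15.3% in cKO, against 31.9%, 84.5% and 90.7% in control. An island in the lncRNA gene Gm19325 (chr9:97056706-97057103) was at 11.1%, 25.4% and 21.7% in cKO and 40.5%, 78.7% and 81.5% in control. Another, in the processed pseudogene Gm5917 (chr9:55518343-55518695), was at 27.7%, 23.6% and 28.8% in cKO and 33.7%, 89.8% and 91.6% in control. In these 3 islands every cKO library was below every control. In the chromosome 4 island, however, cKO replicate 1 and control replicate 1 were nearly equal. Their Wilson 95% intervals, 24.0% to 40.4% and 22.1% to 43.6%, overlapped. The remaining islands named for their fall, 2 by the rule with all libraries and 3 by that without control replicate 1, had cKO means of 21.7% to 35.5% and control means of 63.3% to 79.8%. One of them, at chr1:190391790-190392565, lies 221076 bp from Prox1, a homeobox transcription factor gene, and was at 30.97%, 21.1% and 14.9% in cKO, against 16.1%, 84.3% and 89.5% in control. Here control replicate 1 fell among the cKO libraries. The q-values of all 9 islands were 0.488 with all libraries and 6.40e-06 to 3.82e-04 without control replicate 1.

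At the other end, some methylated islands kept a high level in cKO. Of the 3331 islands at 75% or more in control replicates 2 and 3, 1885 (56.6%) were repeat islands and 974 (29.2%) had words of at least 10 copies. In cKO, 284 of the 3331 were still at 75% or more. Of those 284, 241 were repeat islands and 169 had words of at least 10 copies. In contrast, 106 of the 3331 were under 25% in cKO, of which 33 were repeat islands. The island with the highest level in cKO, at chr1:122772039-122772952, is the tandem repeat shown above, is 100% soft-masked and lies 548519 bp from Dpp10. It was at 98.7%, 95.6% and 94.9% in cKO, against 75%, 94.1% and 95.2% in control. All cKO libraries thus lay above control replicate 1 and around the other controls. The second, at chr13:113507211-113507614, has words that occur once in the genome and was at 92.2%, 96.9% and 91.5% in cKO, against 90.2%, 92.4% and 96.1% in control, a difference of 0.62 points (q = 0.957). The groups overlapped, and it lies 4367 bp from the lncRNA gene 4921509O07Rik. The other 2 islands of this rule, at chr3:100309327-100309761 and chr8:81072807-81073375, averaged 92.0% and 91.7% in cKO and 95.4% and 95.5% in control. Both are repeat islands, with words of 20 and 373 copies.

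Rises were few, and none was called by the quasi-binomial test. Only 14 far islands were 10 points or more above the control mean. The largest among deeply read islands was at chr19:45248617-45248994, 12805 bp from Lbx1, a homeobox gene of dorsal spinal cord neurons and limb muscle precursors. It was at 31.01%, 52.6% and 14.6% in cKO, against 7.77%, 8.20% and 18.0% in control, so that cKO replicate 3 lay within the controls (difference 21.4 points, q = 0.513). Another 2, in the lncRNA gene Gm13667 and 43443 bp from Adtrp, averaged 11.5% and 28.5% in cKO and 2.40% and 19.4% in control.

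The unmethylated set held many long and deeply read islands. Altogether 970 far islands were under 5% in every library, and the one with most reads, at chr13:107888387-107891911, is 3525 bp long with 416 CpGs. GENCODE gives it to a noncoding Zswim6 transcript, whereas RefSeq places it in the coding gene Zswim6, so it is far from coding genes by one annotation only. It was at 0.235%, 0.683% and 0.866% in cKO, against 0.778%, 0.295% and 0.358% in control. The next 3, in the lncRNA gene Gm36445, the pseudogene Gm21321 and the lncRNA gene Gm20732, had cKO means of 1.62%, 0.808% and 0.935% and control means of 0.708%, 0.475% and 0.260%. An island over the microRNA gene Mir193a (chr11:79710742-79712371, 68 cytosines) averaged 0.713% ± 0.380 in cKO and 0.407% ± 0.0826 in control (SD, n = 3 each). In none of these 5 did the groups differ by more than 1 point.

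The island with most measured cytosines was of another kind. It spans chr17:39842904-39848967 (6064 bp, 540 cytosines) over an annotated ribosomal RNA gene, CT010467.1, and held 334711 to 702324 reads per library. Ribosomal DNA is present in the genome in many tandem copies of which the assembly shows few, so its level is an average over copies. It was at 16.8%, 16.1% and 8.49% in cKO, against 7.46%, 20.998% and 16.01% in control. The groups overlapped, with a difference of -1.05 points (q = 0.88), or -4.73 points (q = 0.0495) without control replicate 1. Averages over islands, as used here, give this island the weight of 1 island.

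Noncoding genes of known role were taken from 2 lists, of 9 imprinted and 30 neural noncoding genes, which were chosen with earlier results of these data known. Far islands lay in or within 5000 bp of 2 of the imprinted and 15 of the neural genes, 42 islands in all. With all libraries 0 of them were called lower, and without control replicate 1 there were 6, of the 7 with a level of at least 25% in control replicates 2 and 3 (background 73.5% of such islands). Of the 42, 34 were under 10% in control replicates 2 and 3, against 23.3% of all far islands. The mean of the 3 cKO libraries was at most 8.06% in these 34. The median difference of the 42 to control replicates 2 and 3 was 0.409 points, against -28.3 points over all far islands and -0.648 points over all islands tested. Islands that start low have little to lose, and the sets differ in starting level, so these medians do not compare like islands.

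Meg3, the maternally expressed lncRNA of the imprinted Dlk1-Dio3 domain, held 3 islands with different levels. The first (chr12:109540721-109541194) was at 29.4%, 29.6% and 25.6% in cKO, against 28.0%, 53.9% and 57.0% in control, and the last (chr12:109549568-109550022) at 60.7%, 51.1% and 41.5% in cKO, against 41.5%, 92.1% and 80.2% in control. Both were called lower without control replicate 1 (q = 0.00182 and 0.00206), and not with all libraries (q = 0.543 and 0.594). The middle island (chr12:109546127-109546632) was unmethylated in controls, at 2.53%, 0.714% and 1.75%, and stood at 2.61%, 12.2% and 7.94% in cKO. This comparison had q = 0.686, with 3 cytosines and as few as 57 reads. An island 324 bp from Mirg, the microRNA host transcript of the same domain, averaged 1.51% ± 0.311 in cKO and 0.641% ± 1.11 in control (SD, n = 3 each).

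Sox2ot, the transcript that overlaps the neural stem cell gene Sox2, held 8 islands, and they differed by place. The 4 islands called lower without control replicate 1 had cKO means of 44.4%, 31.9%, 42.3% and 29.4%, against control means of 69.5%, 70.3%, 76.4% and 65.5%. The one at chr3:34490052-34490337, for example, was at 25.5%, 38.7% and 31.6% in cKO, against 26.7%, 94.9% and 89.3% in control (q = 6.14e-05 without control replicate 1 and 0.488 with it). The 3 islands nearest to Sox2, at 6209 to 8657 bp, averaged 0.49%, 8.06% and 3.84% in cKO and 0.974%, 11.6% and 2.97% in control. These 3 carried little methylation in both genotypes, and the middle one was read as few as 26 times. The remaining island (chr3:34266391-34266668), also outside the methylated set, averaged 7.503% ± 1.76 in cKO and 12.0% ± 14.4 in control (SD, n = 3 each).

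The other neural genes were mostly bare of methylation. Mir9-3hg, the host of miR-9, a microRNA that promotes neuronal differentiation, had 8 islands with cKO means of 0.67% to 4.25% and control means of 0.194% to 1.04%. Island means at the miR-124 host genes Mir124a-1hg and Mir124-2hg, and at Malat1, Miat, Emx2os, Sox1ot, Pax6os1, Six3os1 and C130071C03Rik, all stayed under 7% in both groups. The island of Six3os1 (chr17:85607524-85608452) had 0 methylated reads in each control library, of 36 to 90 reads, and was at 3.39%, 2.90% and 5.56% in cKO. The Wilson 95% upper limits of these controls were 4.09% to 9.64%, and the difference of 3.95 points was not called (q = 0.79). The exception was an island in Nkx2-2os (chr2:147255710-147255920), the antisense transcript of a ventral patterning gene, at 34.8%, 55.6% and 29.5% in cKO, against 33.3%, 86.8% and 81.8% in control. It was covered by as few as 23 reads and was not called (q = 0.0178 without control replicate 1).

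**Figure D5:**
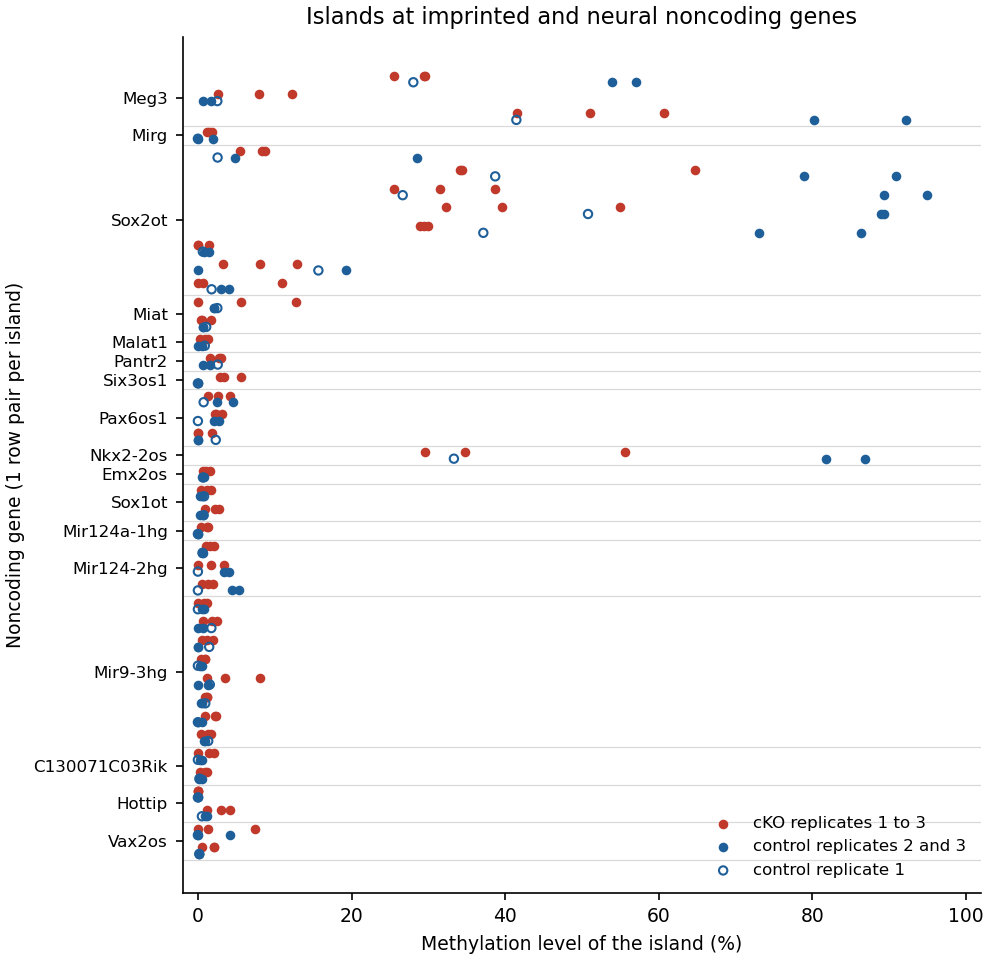
Methylation level (horizontal axis, percent) of the 42 far islands in or near imprinted and neural noncoding genes, 1 pair of rows per island in genome order within each gene. The upper row of a pair shows the 3 cKO libraries (red) and the lower row the controls (blue, open circle for control replicate 1). Points at 20% or more in controls 2 and 3 occur at Meg3, Sox2ot and Nkx2-2os, and elsewhere no library exceeds 12.8%.

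Small RNA genes gave the same split. Of the 38 far islands that overlap one, 27 were under 10% in control replicates 2 and 3 and 9 were at 25% or more, of which 7 were called lower without control replicate 1 (background 73.5% of islands at such a level). The unmethylated ones included the islands of Mir129-2, Mir137, Mirlet7i and Mir9-3. Mir5099 (chr12:36816181-36816719) was at 54.3%, 47.5% and 42.2% in cKO, against 40.3%, 91.8% and 93.01% in control (q = 2.50e-05 without control replicate 1, 0.518 with it). Control replicate 1 lay below the cKO libraries here. Mir5099 was picked from the 38 after its values were seen.

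Sequence set the far islands apart from promoter islands and from each other, while in length and CpG count they were close to gene-body islands. Median GC content was 52.9% in far islands, against 56.2% in gene-body islands and 62.6% in promoter islands. The far islands had a median length of 365 bp and a median of 15 CpGs, against 994 bp and 75 CpGs for promoter islands and 374 bp and 17 for gene-body islands, and a median of 4 measured cytosines. When the merged island was taken as a whole, 48.5% still met the composition criteria, against 47.6% of gene-body islands and 91.4% of promoter islands. Far islands under 10% in control replicates 2 and 3 had a median length of 496.5 bp and 25 CpGs, and those at 75% or more 350 bp and 14 CpGs. The hexamer TGCCGC, searched on both strands in the central 200 bp, was found in 9.87% of far islands, against 15.9% of all islands, and in 14.9% of the unmethylated against 7.87% of the methylated far islands. Among far islands at 75% or more in control replicate 2, those with the hexamer (265) were at 56.3%, 53.6% and 48.1% in cKO replicates 1, 2 and 3 and those lacking it (3081) at 52.7%, 51.7% and 44.6%, so that the islands with it were higher in each cKO library. In control replicate 3 the islands with and without it were at 87.8% and 87.6%, and in control replicate 1 at 48.3% and 46.3%. CCGG, the MspI site, was found in 92.8% of the far islands and 91.9% of all islands in the same window.

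Islands on either side of the selection limits were compared as a description. Far islands over 5000 and up to 7500 bp from a coding gene (445) were at 21.7% ± 2.36 in cKO, and those excluded at over 2500 and up to 5000 bp (557) at 19.5% ± 1.72 (SD, n = 3), with 34.6% and 30.5% in control. Members with 3 measured cytosines (1812) averaged 34.95% in cKO and 54.8% in control, and islands with 2, left out here (1677), 32.4% in cKO and 52.3% in control. RefSeq places 217 of the 6099 islands inside a coding gene and 75 within 5000 bp of one. Without these 292 islands the difference was -16.6 points with all libraries and -26.3 points without control replicate 1.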

How the data were processed

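The deposited files list, per cytosine, the coverage as read counts and the percent of C and T reads. Per the study's methods, the authors aligned reads to GRCm38 with no mismatch, left out positions read 5 times or fewer and analysed them with methylKit. From these percent values and counts, methylated reads were rebuilt and summed per island over cytosines read at least 6 times in all 6 libraries. Genes came from GENCODE M21. Copies are the median genome-wide count of an island's 31-base words. Class means weigh each island equally and were compared by exact permutation tests over libraries. Islands were tested with a quasi-binomial F test with moderated dispersion, whose prior was checked against that of limma 3.58.1 (R 4.3.3) and which was tested on simulated data (Python 3.11.15, scipy 1.17.1). Islands were named as the 6 largest falls with all libraries and without control replicate 1, the 4 largest rises, the 4 highest in cKO among those at 75% or more, the 4 with most reads among those under 5%, the 3 with most cytosines, and all near 2 lists of noncoding genes. One island that these rules name is not reported here. The members, lists and rules were chosen with earlier results of these data known. Alternatives covered the coverage minimum, window, weighting, distance, dispersion and each library left out.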

Additional observations from a re-analysis of the deposited data

How the results depend on the processing

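Of 105 alternatives to the main results, 96 left the value on the same side and within its spread, and no class of far islands changed direction. This tally is a loose measure, since it includes call counts that stayed at 0. It also counted differences of -7.03 points (500-bp windows) and -26.01 points (without control replicate 1) as the same as -16.4 points. The change in the excess over gene-body islands was -1.31 points with 500-bp windows, -0.73 points with equal weight per cytosine and, in an alternative chosen after seeing the data, -1.45 points with equal weight per read without the ribosomal DNA island. With 500-bp windows the difference was -7.03 points with all libraries and -11.2 points without control replicate 1. The share of control methylation left was 77.2% with 500-bp windows and 56.1% to 74.4% when a library was left out. The plain binomial test called 1912 islands lower, and leaving out a library gave 0 to 2798 lower calls, with 2798 reached without control replicate 1. Libraries with the same number did not deviate together (r = -0.22, 0.07 and -0.29), and pairs with other numbers ranged from r = -0.30 to 0.33. With 3 libraries per group, these r values cannot tell whether libraries of the same number shared a litter. A fit with the replicate block gave -16.4 points (exact sign-flip p = 0.5) and 0 calls in either direction. Without control replicate 1, islands of 500-bp windows gave 78 lower calls among 1168, a coverage minimum of 20 gave 880 among 1814, and islands masked under 50% gave 1507 among 3981. Among 138 values of named islands with a library left out, 5 changed sign, in 3 islands whose groups overlapped. With the moderated test and limma, lower calls were made without control replicate 1 and not with all libraries.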

Other observations

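Islands by the same rule on the sex chromosomes belong to no comparison above. The 214 on the X chromosome averaged 41.4% ± 3.20 in cKO and 60.6% ± 19.4 in control, and the 13 on the Y chromosome 73.5% ± 3.59 in cKO and 80.9% ± 9.73 in control (SD, n = 3 each). In control replicates 2 and 3 alone the X islands were at 74.1% and 69.4%.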
